A study of Mus musculus with 9 samples.

Results

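The early-response genes described here are 10 genes that cells transcribe within minutes of a stimulus: the zinc-finger transcription factors Egr1, Egr2 and Egr3, the orphan nuclear receptor Nr4a1, the transcription factors Klf4 and Myc, the immediate early proteins Ier2 and Ier3, the MAP kinase phosphatase Dusp1 and the mRNA decay factor Zfp36 (tristetraprolin). They were taken by gene symbol from the deposited array table, and all 10 were found among 19505 genes. Each gene was represented by the feature with the highest mean over the 9 arrays. Total RNA came from skin of C57BL/6J mice aged 8 weeks whose back hair had been removed, and all of the skin was treated with 5% imiquimod cream, an agonist of Toll-like receptors that induces psoriasis-like dermatitis, daily for 7 days. The 5 stretch samples (IMQ+F) carried a glued plastic device elongated by 10 mm from the first day, and the 4 no-stretch samples (IMQ+N) were not stretched; the protocol does not say whether they also carried the device. The comparison asks which genes differ when skin under imiquimod is stretched, and no skin without imiquimod was analysed here. Whether each sample was a separate mouse is not stated in the labels, and the p-values therefore reflect variation among samples that may be technical.

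Early-response genes are held ready for transcription and are switched on without new protein synthesis when MAP kinases activate serum response factor and its ETS-family partners, or when cyclic AMP and calcium signals activate CREB. Their mRNAs are short-lived, because AU-rich elements recruit decay proteins such as tristetraprolin, and several of the products (Dusp1, Zfp36, Ier3) dampen the same signals that induced them. In skin they are known to respond to wounding, ultraviolet light, inflammatory cytokines and mechanical load, and Klf4 also has a standing role in the upper epidermis, where it is needed for barrier formation.

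No member passed the test for a difference with stretch. Of the 10, 6 had a positive log2 change (stretch minus no stretch) and 4 a negative one, from 1.91 for Ier3 to -0.997 for Egr3, with a median of 0.39 against -0.0034 over all genes. That median rested on single arrays: with stretch replicate 5 left out it was -0.0086, with no-stretch replicate 2 left out -0.015, and it was 0.76 when stretch replicate 1, and 0.62 when no-stretch replicate 3, was omitted. In the moderated test of limma, adjusted by Benjamini-Hochberg over all 19505 genes, 0 of 10 members had an adjusted p under 0.05, where 0.246% of all genes did. At an unadjusted p under 0.05 the members were Ier3, Egr3 and Myc, 3 of 10 against 13.0% of all genes. For 1 member, Ier3, every array of one group lay above every array of the other, as was so for 4.54% of all genes. Because whole skin was profiled, fewer cells of a type and less RNA per cell cannot be told apart for any gene below.

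**Figure D1:**
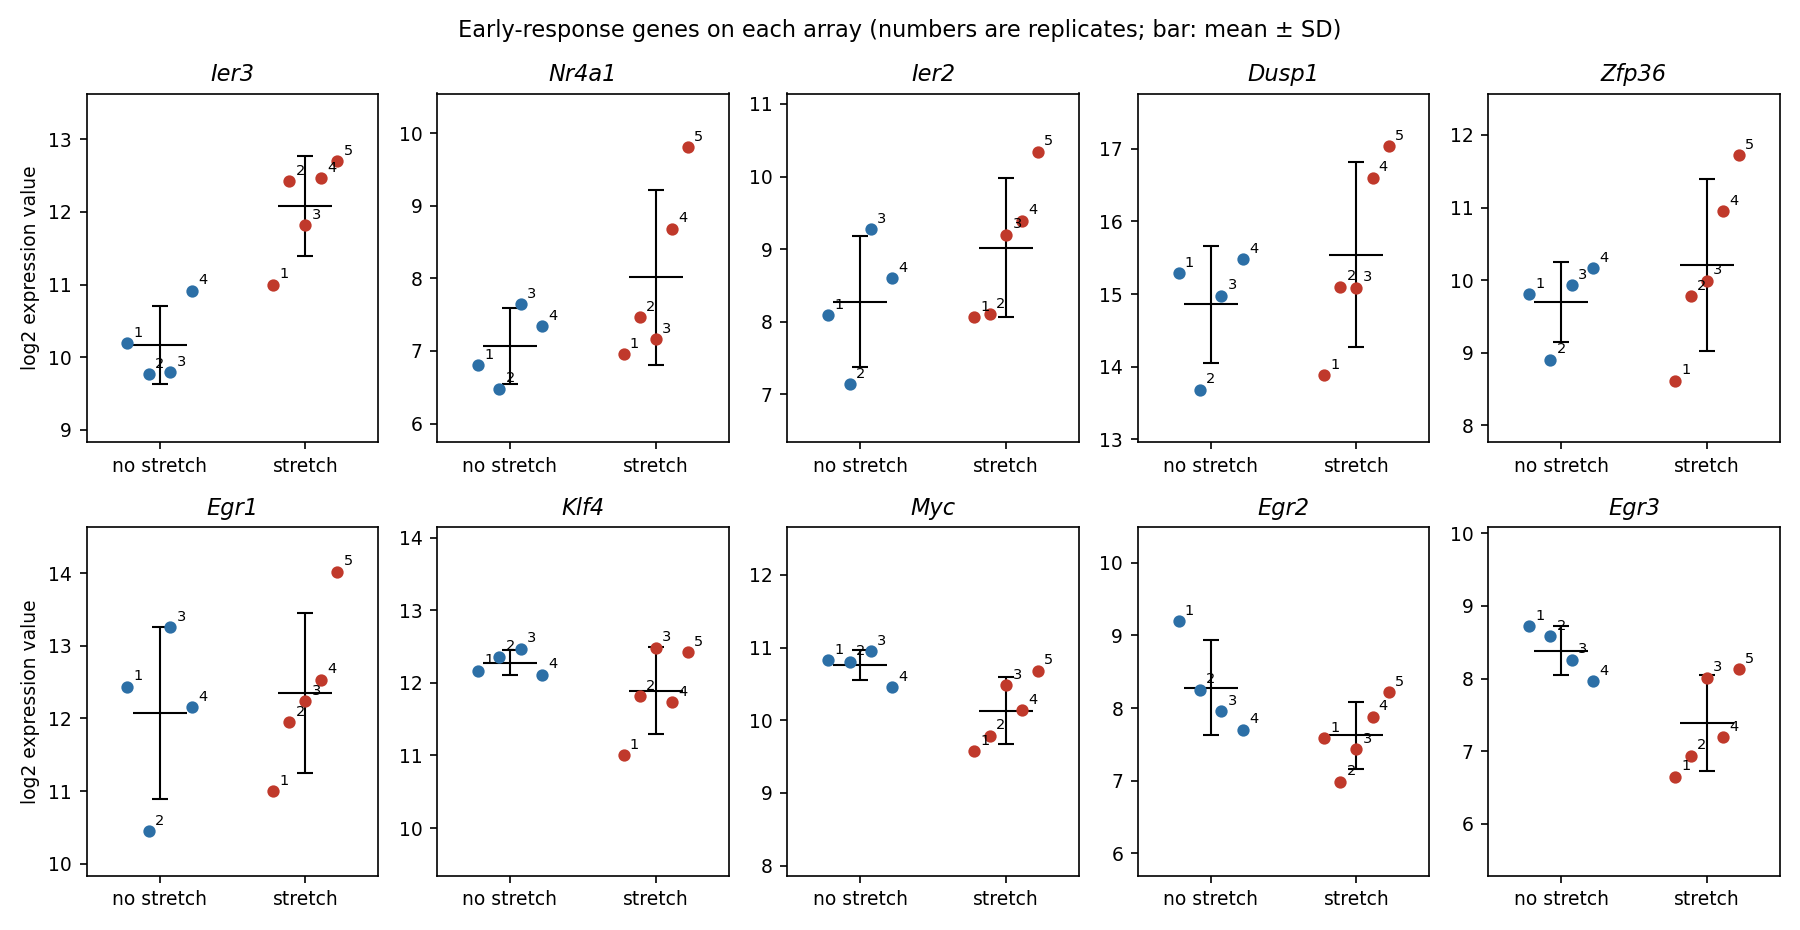
Log2 expression value of each of the 10 genes on each array, no stretch in blue (n = 4) and stretch in red (n = 5), with the mean ± SD; each panel spans the same range on its vertical axis. Ier3 is the gene whose groups do not overlap, with 5 of 5 stretch arrays above every no-stretch array.

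Ier3, a stress-induced protein known to limit apoptosis and to feed back on NF-kB and ERK signalling, showed the largest difference. Its log2 expression values were 10.999, 12.43, 11.82, 12.46 and 12.70 in stretch replicates 1 to 5 and 10.19, 9.76, 9.80 and 10.92 in no-stretch replicates 1 to 4. Every stretch array thus lay above every no-stretch array, narrowly so for stretch replicate 1 over no-stretch replicate 4. The means were 12.08 ± 0.69 (SD, n = 5) and 10.17 ± 0.54 (SD, n = 4), a log2 change of 1.91 (standard error 0.35, 95% confidence interval 1.15 to 2.68) or 3.77-fold, and limma's adjusted p was 0.053.

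The adjusted p of Ier3 lay close to the threshold and crossed it with single arrays. Leaving out stretch replicate 1 gave 0.018, stretch replicate 3 gave 0.043 and no-stretch replicate 4 gave 0.037. Leaving out any other single array kept it above the threshold, the highest being 0.165 for no-stretch replicate 1. The log2 change stayed between 1.76 and 2.19 in these 9 fits. Without stretch replicate 1 and no-stretch replicate 3 together, the arrays of lowest weight, Ier3 had a log2 change of 2.06 and limma's adjusted p of 0.054.

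**Figure D2:**
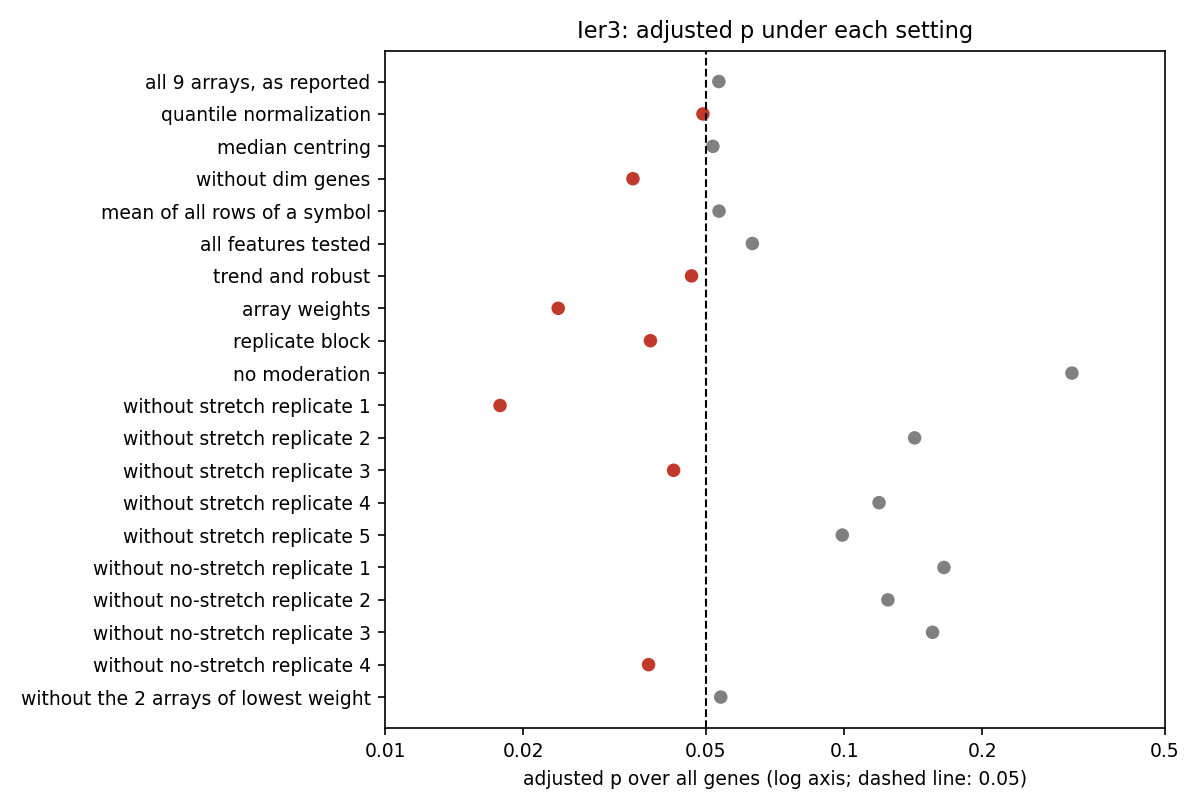
Benjamini-Hochberg adjusted p of Ier3 over all genes tested (horizontal, log axis) under the reported fit and 19 alternatives (vertical), with values under 0.05 in red and the others in grey. The value is 0.053 with all arrays, and 8 of the alternatives fall to the left of the dashed line at 0.05.

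Neutrophil markers and monocyte and macrophage markers had changes of the same sign as Ier3, and endothelial markers mostly did (4 of 5 positive, median 0.56). T cell markers (0 of 6 positive, median -0.33) and mast cell markers (1 of 6 positive, median -0.17) mostly had the opposite sign. None of these lists had a marker past the threshold. All 9 measured neutrophil markers had a positive log2 change, with a median of 1.74 and none past the threshold, and the mean level of the list ran from 11.45 to 12.80 on the stretch arrays and from 9.65 to 10.75 on the others. All 8 measured monocyte and macrophage markers were positive too, with a median of 0.46, but their list means overlapped (12.58 to 13.92 against 12.26 to 13.47). Among the stretch arrays, replicate 5 was highest for Ier3 (12.70), followed by replicates 4 and 2 (12.46 and 12.43). Replicates 2 and 4 were highest for the neutrophil list. The part of these cells in the Ier3 difference was not tested.

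Egr1, Ier2, Nr4a1, Dusp1 and Zfp36 had positive log2 changes that were small beside the spread between arrays. Egr1, a factor that serum, growth factors and stretch are known to induce, was at 10.997, 11.95, 12.23, 12.53 and 14.02 in stretch replicates 1 to 5 and at 12.44, 10.45, 13.26 and 12.16 in no-stretch replicates 1 to 4. Both groups covered most of the same range, and the highest and the lowest array were stretch replicate 5 and no-stretch replicate 2. The log2 change was 0.27 (95% confidence interval -1.05 to 1.59, limma adjusted p = 0.89), and it turned to -0.15 without stretch replicate 5 and to -0.27 without no-stretch replicate 2. Without stretch replicate 1 or no-stretch replicate 3 it was 0.61 or 0.66.

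Ier2, a short-lived nuclear protein of the immediate early class, was at 8.06, 8.11, 9.20, 9.39 and 10.34 with stretch and at 8.09, 7.14, 9.27 and 8.61 without. Stretch replicates 4 and 5 lay above all no-stretch arrays and the others within their range. Its log2 change was 0.74 (-0.36 to 1.84, limma adjusted p = 0.57), and leaving out no-stretch replicate 2 or stretch replicate 5 lowered it to 0.36 or 0.41.

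Nr4a1, an orphan nuclear receptor that restrains inflammatory gene expression in macrophages, was at 6.96, 7.47, 7.16, 8.68 and 9.81 with stretch and at 6.80, 6.48, 7.65 and 7.34 without. Again replicates 4 and 5 were the stretch arrays above the no-stretch range. The log2 change was 0.95 (-0.19 to 2.09, limma adjusted p = 0.48), and without stretch replicate 5 it was 0.50.

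Dusp1 removes phosphate from p38, JNK and ERK and thereby ends their activity. It was at 13.88, 15.10, 15.09, 16.60 and 17.04 with stretch and at 15.29, 13.68, 14.98 and 15.48 without, so that 2 stretch arrays were above, and 3 within, the range of the others. Its log2 change was 0.69 (-0.60 to 1.97, limma adjusted p = 0.66). Dropping no-stretch replicate 2 gave 0.29, and dropping stretch replicate 5, 4 or 1 gave 0.31, 0.42 or 1.10.

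Zfp36 encodes tristetraprolin, which binds AU-rich elements and speeds the decay of cytokine mRNAs. It was at 8.62, 9.78, 9.99, 10.95 and 11.72 with stretch and at 9.81, 8.90, 9.94 and 10.16 without. The stretch arrays spanned the whole no-stretch range, with stretch replicate 1 below it and replicates 4 and 5 above it. Its log2 change was 0.51 (-0.63 to 1.64, limma adjusted p = 0.72). That value fell to 0.13, 0.24 and 0.32 when stretch replicate 5, no-stretch replicate 2 and stretch replicate 4 were omitted in turn, and reached 0.91 without stretch replicate 1.

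**Figure D3:**
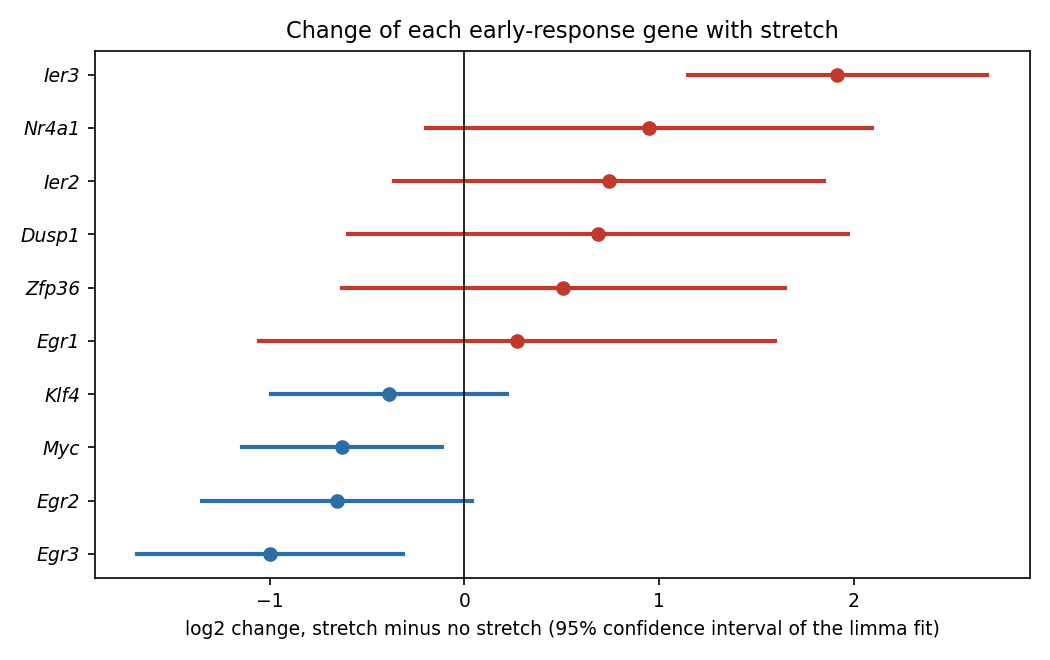
Log2 change, stretch minus no stretch (horizontal), of each gene (vertical) with its 95% confidence interval from the limma fit, positive in red and negative in blue. The intervals of Ier3, Myc and Egr3 do not reach 0, while that of Egr1 runs from -1.05 to 1.59.

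Egr2, Egr3, Klf4 and Myc had negative log2 changes, and for each of these 4 genes 3 of 5 stretch arrays lay below every no-stretch array. Egr2, a relative of Egr1 known for its roles in myelinating Schwann cells and in the restraint of T cells, was at 7.59, 6.99, 7.44, 7.88 and 8.22 with stretch and at 9.20, 8.25, 7.96 and 7.70 without. No-stretch replicate 1 stood highest, and the ranges overlapped between 7.70 and 8.22. The log2 change was -0.65 (-1.35 to 0.04, limma adjusted p = 0.41), and -0.35 with no-stretch replicate 1 left out.

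Egr3, which shares the DNA-binding zinc fingers of the family, was at 6.65, 6.94, 8.01, 7.20 and 8.13 with stretch and at 8.72, 8.58, 8.26 and 7.97 without. Stretch replicates 3 and 5 reached into the no-stretch range and the other stretch arrays did not. The means were 7.39 ± 0.66 (SD, n = 5) and 8.38 ± 0.34 (SD, n = 4), a log2 change of -0.997 (-1.68 to -0.32), or 2.0-fold lower, with limma's unadjusted p = 0.0080 and adjusted p = 0.21.

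Egr3 was the single member with more than 1 feature on the array, and its 3 features did not give the same answer. The feature used above had the highest mean. A second, at 4.08 to 4.63 with stretch and 4.75 to 5.22 without, had groups that did not overlap and a log2 change of -0.59 (-0.99 to -0.19), with limma's adjusted p = 0.22 over all features. The third had a log2 change of 0.16 (-0.22 to 0.54) in the other direction. Averaging all 3 gave -0.48, so the size of the Egr3 difference depends on which probes are read.

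Klf4 was at 11.01, 11.82, 12.48, 11.73 and 12.42 with stretch and at 12.17, 12.36, 12.47 and 12.11 without. The no-stretch arrays lay within 0.36 of each other, while the stretch arrays spread over 1.48, from stretch replicate 1 below all arrays to replicate 3 above them. Its log2 change was -0.39 (-0.99 to 0.22, limma adjusted p = 0.59). Without stretch replicate 1 it was -0.16, and without the pair of arrays of lowest weight -0.10.

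Myc, the growth-promoting bHLH factor, was at 9.57, 9.79, 10.48, 10.14 and 10.68 with stretch and at 10.83, 10.81, 10.95 and 10.46 without. Stretch replicates 3 and 5 overlapped with no-stretch replicate 4, the lowest of its group. The means were 10.13 ± 0.46 (SD, n = 5) and 10.76 ± 0.21 (SD, n = 4), a log2 change of -0.63 (-1.14 to -0.11) or 1.55-fold lower, with limma's unadjusted p = 0.021 and adjusted p = 0.28.

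Several cell type lists also had negative changes. All 5 measured suprabasal keratinocyte markers had a negative log2 change (median -0.79, none past the threshold), with list means of 15.29 to 16.50 on the stretch arrays and 16.29 to 16.88 on the others. Melanocyte markers were negative in 5 of 5 (median -1.30, 2 past the threshold), adipocyte markers in 4 of 4 (median -1.09, none past it), fibroblast markers in 6 of 7 (median -0.82, 1 past it) and T cell markers in 6 of 6. List means did not overlap between the groups for melanocytes (4.77 to 5.55 with stretch and 6.32 to 6.63 without), adipocytes (7.65 to 8.60 and 8.75 to 9.55) and fibroblasts (14.69 to 15.33 and 15.76 to 16.01). The skeletal muscle list, which the skin's muscle layer can contribute, was 1.27 below the no-stretch mean in stretch replicate 1. In the other 4 stretch arrays it was between 0.12 and 0.69 above that mean. Stretch replicate 1 had the lowest Egr3, Klf4, Myc and Zfp36 of all arrays, and was below the stretch mean for 10 of 10 members. The part of the cells of these lists in the values of the members was not tested. The defining markers of epidermis and dermis were present at high level, with Krt14 at 19.53 ± 0.24 (SD, n = 5) and 18.97 ± 0.47 (SD, n = 4), and Col1a1 at 15.27 ± 0.47 and 16.16 ± 0.28 with and without stretch. Krt14 does not stand for its list, as 3 of the 6 basal keratinocyte markers had a positive change and 3 a negative one.

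The members varied between arrays of the same group more than most genes, but to differing degrees. Their pooled SD within groups had a median of 0.78 on the log2 scale, against 0.32 over all genes. For Egr1, Dusp1, Nr4a1, Zfp36 and Ier2 more than 98% of genes had a smaller SD. For Ier3, Egr2, Egr3, Klf4 and Myc that share was 92.3%, 88.6%, 87.9%, 80.9% and 64.5%. The genes used as the yardstick include dim ones, and genes of similar level were not compared. The median standard error of the members' log2 changes was accordingly 0.43, where it was 0.21 over all genes. Among the stretch arrays, replicate 5 was above the stretch mean for 10 of 10 members and replicate 1 below it for 10 of 10, with median deviations of 1.03 and -1.01. Over all genes these arrays were not shifted: 48.7% and 48.2% of genes lay above their stretch mean. On the no-stretch side, replicate 2 had the lowest level of its group for 6 members, Egr1, Ier2, Ier3, Nr4a1, Dusp1 and Zfp36, and was not the lowest for Egr2, Egr3, Klf4 and Myc.

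**Figure D4:**
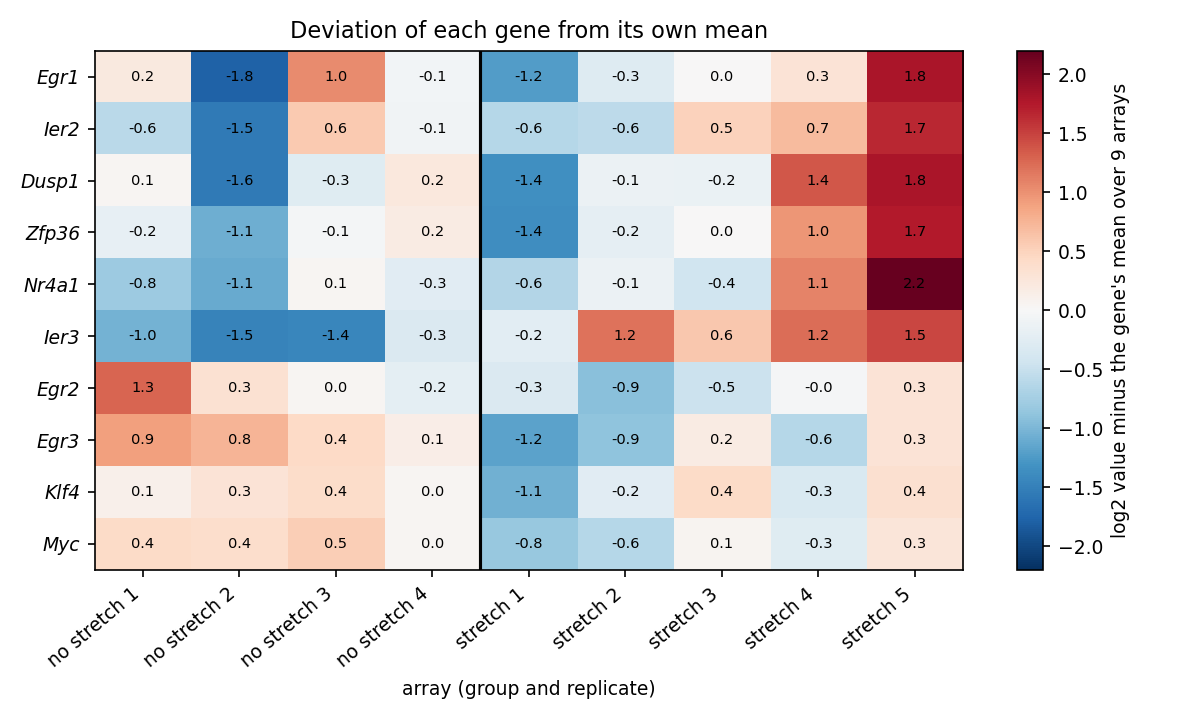
Log2 value of each gene (rows) on each array (columns, no stretch left of the black line and stretch right of it) minus that gene's mean over all 9 arrays; red is above and blue below. Stretch replicate 5 is above and stretch replicate 1 below the mean for every gene, and no-stretch replicate 2 is low for the upper 6 genes.

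Egr1 was compared with each of the other 9 members across the 9 arrays. Its relation was strongest with Ier2, with Pearson's r = 0.90 (exact permutation p = 0.0012, adjusted over the 9 relations 0.011) and Spearman's rho = 0.88 (exact p = 0.0031, adjusted 0.028). Zfp36 had r = 0.86 (exact permutation p = 0.0042, adjusted 0.016) and rho = 0.78 (exact p = 0.017, adjusted 0.076). Dusp1 had r = 0.84 (exact permutation p = 0.0053, adjusted 0.016) and rho = 0.67 (exact p = 0.059, adjusted 0.13). Nr4a1 had r = 0.79 (exact permutation p = 0.011, adjusted 0.026) and rho = 0.75 (exact p = 0.025, adjusted 0.076). These relations were weaker without stretch replicate 5 and no-stretch replicate 2, the arrays farthest from the median of Egr1, where r was 0.66, 0.69, 0.56 and 0.41, so they rest in part on those arrays. Without the same arrays r with Egr1 was higher for Myc (0.84), Klf4 (0.81) and Egr3 (0.68) than over all 9 arrays, and it was 0.34 for Egr2 and -0.31 for Ier3, so that the order of the genes by r was not kept. After the group means were removed r was 0.93, 0.87, 0.85 and 0.83 for the same 4 genes. Over all 9 arrays, r of Egr1 with Egr2, Egr3, Ier3, Klf4 and Myc lay between 0.17 and 0.44, with exact permutation p from 0.23 to 0.66. Egr3 followed Myc (r = 0.96 over 9 arrays) and Klf4 (r = 0.84), Myc followed Klf4 (r = 0.88), and Dusp1 followed Zfp36 (r = 0.98). These pairs were picked after their values were seen and are given as descriptions.

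The genes with the pattern most like each member, by Pearson's r over the 9 arrays among all genes outside the set, partly belonged to the same class. For Ier2 the closest gene was Fos (r = 0.97), the AP-1 subunit induced by the same signals, followed by Ifrd1 (r = 0.94). For Ier3 the closest were Gadd45b (r = 0.98), a stress-induced gene, and Cyp2s1 (r = 0.96). For Dusp1 and Zfp36 alike they were Id3 (r = 0.98 with each), an inhibitor of bHLH factors, and Surf2. Dusp5, another MAP kinase phosphatase, was the second closest to Nr4a1 (r = 0.93), after Tmem203. Klf4 was closest to Btbd3 and to Sbsn, suprabasin of the upper epidermis (r = 0.97 and 0.96). Egr3 was closest to Nhsl1 and Trp53inp2 (r = 0.98 each), Egr2 to Zfp276 and Pnisr (r = 0.96 each), Myc to Ctnnd2 and the muscle gene Perm1 (r = 0.96 each), and Egr1 to Spx and Vmn1r41 (r = 0.94 each). Each is the highest of 19495 correlations over 9 arrays, and the arrays share their group differences and processing. Id3, Spx, Vmn1r41, Ctnnd2 and Zfp276 were dim, with means below the array medians of 5.81 to 5.99. In that order the means were 4.88, 3.04, 4.69, 3.11 and 4.91 with stretch. Without stretch they were 4.62, 3.12, 4.68, 3.35 and 5.11. These genes were absent from the fit without dim genes, and their r is not read as shared expression in skin.

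The promoters of Dusp1, Zfp36 and Nr4a1, which varied together, are shown with that of Ier3, the gene of largest difference, and that of Klf4, from the set with negative changes. Each is the 250 bases before the RefSeq start (GRCm38.p6), 5′ to 3′ on the gene's own strand, and 6 of the 10 members had an entry. Capitals mark matches, on either strand, to the CArG box bound by serum response factor, to the cyclic AMP response element TGACGTCA or its core TGACG, to the EGR sites GCGGGGGCG and GCGTGGGCG, or to the NF-kB motif.
Dusp1, chr17:26508473-26508722, minus strand: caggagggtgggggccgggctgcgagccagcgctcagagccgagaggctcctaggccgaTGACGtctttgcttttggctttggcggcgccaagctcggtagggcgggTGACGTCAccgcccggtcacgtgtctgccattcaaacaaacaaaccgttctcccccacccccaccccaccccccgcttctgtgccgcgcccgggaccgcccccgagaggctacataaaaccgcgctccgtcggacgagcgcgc
Zfp36, chr7:28379229-28379478, minus strand: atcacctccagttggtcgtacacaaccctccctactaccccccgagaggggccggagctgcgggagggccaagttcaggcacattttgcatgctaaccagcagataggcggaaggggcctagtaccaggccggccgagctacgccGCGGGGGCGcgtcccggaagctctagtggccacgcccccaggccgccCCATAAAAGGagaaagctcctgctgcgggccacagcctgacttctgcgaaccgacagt
Nr4a1, chr15:101266596-101266845, plus strand: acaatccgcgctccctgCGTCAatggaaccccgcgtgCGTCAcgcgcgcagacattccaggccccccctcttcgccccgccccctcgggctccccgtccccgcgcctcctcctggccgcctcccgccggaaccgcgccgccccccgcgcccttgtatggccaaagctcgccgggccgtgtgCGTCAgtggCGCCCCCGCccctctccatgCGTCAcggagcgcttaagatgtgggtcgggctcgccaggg
Ier3, chr17:35821463-35821712, plus strand: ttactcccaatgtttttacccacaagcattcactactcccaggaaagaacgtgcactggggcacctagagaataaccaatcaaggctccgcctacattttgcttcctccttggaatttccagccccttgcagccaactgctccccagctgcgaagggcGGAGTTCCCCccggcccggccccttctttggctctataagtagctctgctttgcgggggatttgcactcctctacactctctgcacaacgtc
Klf4, chr4:55532476-55532725, minus strand: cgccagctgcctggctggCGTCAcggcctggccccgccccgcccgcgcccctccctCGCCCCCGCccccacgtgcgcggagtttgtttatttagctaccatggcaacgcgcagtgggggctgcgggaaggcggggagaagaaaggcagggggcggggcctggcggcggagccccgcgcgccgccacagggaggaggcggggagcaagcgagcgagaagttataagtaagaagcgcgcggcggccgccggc

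The matches differed between these promoters. Dusp1 held 1 full cyclic AMP response element, at positions -143 to -136 from the start, a motif present in 1.55% of 32851 promoter windows of the same length. Its 3 core TGACG matches include 2 that lie within that element. Nr4a1 held 4 cores, a match found at least once in 17.8% of windows, and 1 EGR site at -60 to -52. Zfp36 held a CArG box at -58 to -49, found in 1.47% of windows, and an EGR site at -105 to -97, found in 3.06%. Klf4 held 1 core and 1 EGR site, and Ier3 held 1 NF-kB motif at -92 to -83, found in 3.9%. For Egr2, which has 5 annotated starts, 4 windows held a CArG box; 3 of them overlap and hold the same box, so that these are 2 distinct boxes. A match is a description of the letters in the window and says nothing of whether a factor bound there.

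None of the other genes of these pathways passed the test with all arrays except Ptgs2. Under the 19 alternatives 15 others passed at least once: Cxcl2 in 5, Il1b and Il6 in 4 each, Cxcl1 and Ccl3 in 2 each, and the rest in 1 each. Of the rest, 5 (Elk3, Sprr1a, Flg2, Aloxe3 and Ccl2) passed only with the replicate number as a block, although replicate numbers were not taken as pairs. Another 3 (Csf3, Plaur and Tnfaip3) passed only without stretch replicate 3, and Maff and Gadd45b only with array weights. Of all 19505 genes, 221 passed with the block, 195 without stretch replicate 3 and 157 with array weights. The share of all genes that passed at least once is not given here. The count of 15 is therefore not read as a result about these pathways. Among the relatives of the EGR and NR4A factors and their NAB corepressors, 4 of 5 had a positive change and none passed. Nab2, a corepressor that EGR factors themselves induce, was at 6.06 to 6.36 with stretch and 5.53 to 5.94 without, a log2 change of 0.41 (0.06 to 0.76, limma adjusted p = 0.30) with no overlap between the groups. Nab1 (0.18), Nr4a2 (0.08), Nr4a3 (0.31) and Egr4 (-0.13) had log2 changes with intervals that include 0. The changes of Nr4a2 and Nr4a3 turned sign without single arrays. Egr4 was dim, with means of 4.29 with stretch and 4.41 without.

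The AP-1 and related factors, which are induced alongside the members, had 7 of 9 positive changes and a median of 0.74, with none past the threshold. Maff, a small MAF protein, was at 6.505 to 7.63 with stretch and 5.41 to 6.05 without, a log2 change of 1.14 (0.60 to 1.68, limma adjusted p = 0.082). Junb had a log2 change of 1.23 and Fosl1 of 0.78 (limma adjusted p = 0.21 and 0.33). Fos was at 10.54 to 14.14 with stretch and 8.69 to 12.13 without (log2 change 1.05, -0.69 to 2.80), and as for Egr1 its highest and lowest arrays were stretch replicate 5 and no-stretch replicate 2.

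Of 28 further early-response genes, 23 had a positive change, with a median of 0.42 and none past the threshold. Those with the smallest p were Gadd45b, Csrnp1 and Phlda1, with log2 changes of 1.21, 1.65 and 1.38 (limma adjusted p = 0.094, 0.11 and 0.14). They were also the 3 of 28 whose groups did not overlap, as was so for 4.54% of all genes. A small p favours such separation, so this adds no further evidence. Csrnp1 was low without stretch (mean 5.04, and 6.69 with stretch) and was absent from the fit without dim genes. The MAP kinases, serum response factor and its partners were evenly divided, 6 positive and 6 negative, with a median of 0.0079. Within them the ETS-domain partners Elk3 and Elk4 had log2 changes of 1.02 and -0.64 (limma adjusted p = 0.24 and 0.25). The other dual-specificity phosphatases had a median of 0.07, and their smallest p belonged to Dusp5, with a log2 change of 0.71 (limma adjusted p = 0.41).

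**Figure D5:**
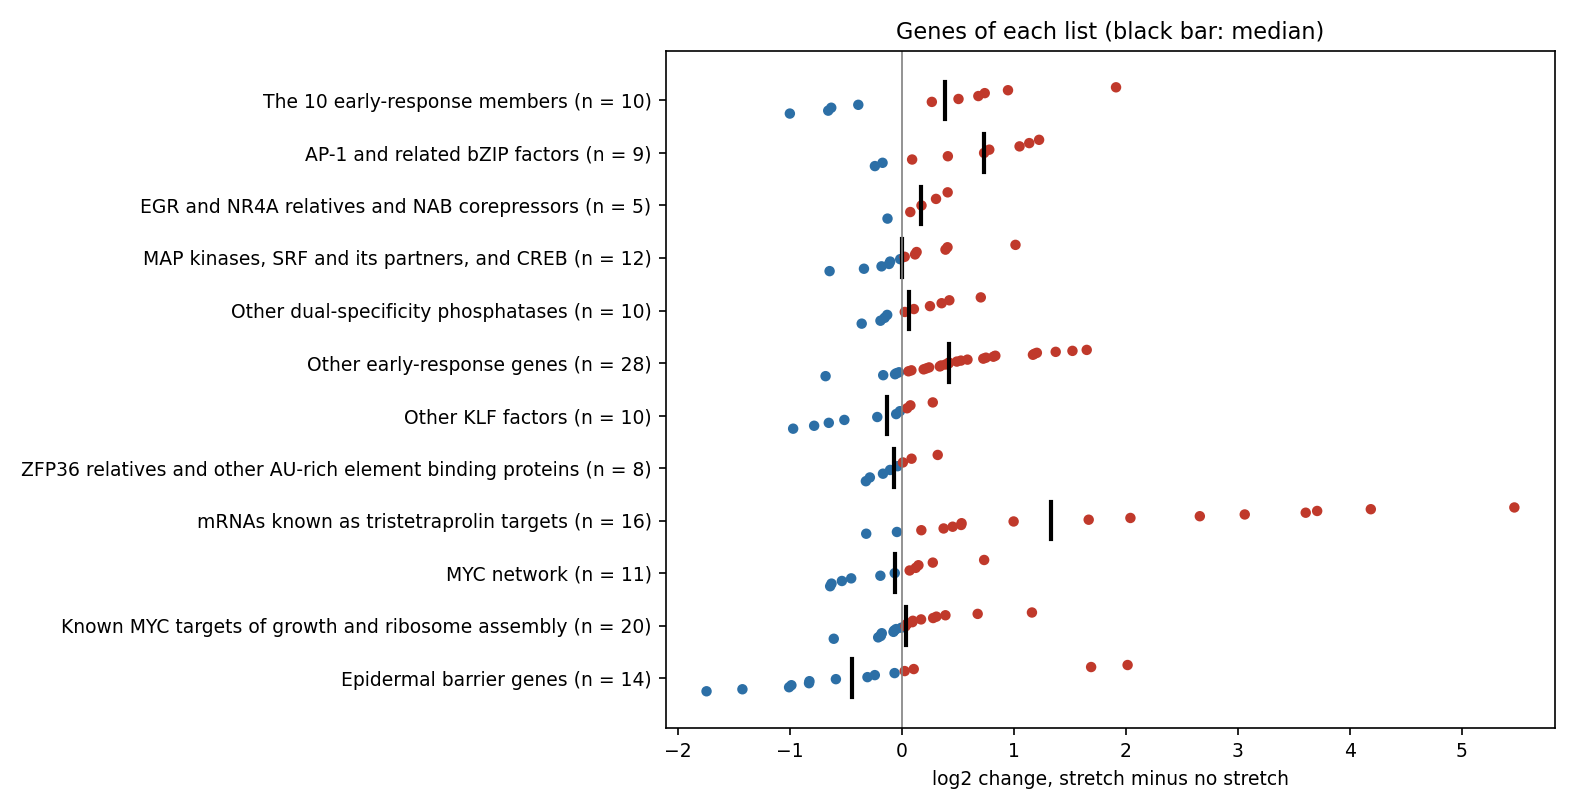
Log2 change, stretch minus no stretch (horizontal), of every measured gene of each list (vertical, number of genes in brackets), positive in red and negative in blue, with the median as a black bar. The tristetraprolin targets have the highest median, 1.34, and the epidermal barrier genes the lowest, -0.45.

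Messages known as targets of tristetraprolin, the Zfp36 product, had 14 of 16 positive changes and a median of 1.34. In 5 of the 16 the groups did not overlap, as was so for 4.54% of all genes. The mean level of these targets, relative to the no-stretch mean, was 1.90, 2.18, 0.72, 2.69 and 1.62 in stretch replicates 1 to 5. That of the neutrophil markers was 1.85, 2.51, 1.16, 2.49 and 1.34. Both lists were thus lowest in stretch replicate 3 and highest in replicates 2 and 4, and the part of neutrophils in these values was not tested. Ptgs2, the inducible cyclooxygenase, passed (log2 change 3.61, limma adjusted p = 0.045), but not in 7 of the 9 fits that left out an array, the adjusted p then reaching 0.135. Cxcl2, Il1b and Il6 had log2 changes of 5.47, 3.71 and 4.19 (limma adjusted p = 0.054, 0.070 and 0.076). Without stretch replicate 3 limma's adjusted p of Cxcl2, Il1b and Il6 was 0.012, 0.023 and 0.034, and without no-stretch replicate 4 that of Cxcl2 and Il6 was 0.043 and 0.046. Il1b and Il6 are named in the title of the series, so this list is not independent of what the study reports. Zfp36 itself had a log2 change of 0.51, and its relatives Zfp36l1 and Zfp36l2 of -0.32 and 0.32 (limma adjusted p = 0.78 and 0.73).

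Genes around Myc were divided. The MYC network of partners and antagonists had 5 positive and 6 negative changes with a median of -0.06. Within it Mycl, a paralog, had a log2 change of -0.63, the antagonist Mxd4 -0.64 and the antagonist Mxd1 0.74 (limma adjusted p = 0.29, 0.24 and 0.34). Mycl was dim, with means of 5.18 with stretch and 5.81 without, and was absent from the fit without dim genes. Known MYC targets of growth and ribosome assembly had 11 positive and 9 negative changes and a median of 0.04. Odc1, the first enzyme of polyamine synthesis, had a log2 change of 1.16 with no overlap between the groups, Hk2 of 0.68 and Ccnd2 of -0.61 (limma adjusted p = 0.16, 0.27 and 0.26).

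Around Klf4, the other KLF factors had 7 of 10 negative changes and a median of -0.13. Klf3, Klf5 and Klf9 had log2 changes of -0.97, -0.78 and -0.65 (limma adjusted p = 0.23, 0.40 and 0.46). Epidermal barrier genes had 10 of 14 negative changes and a median of -0.45, with none past the threshold. Any relation of these genes to Klf4 was not tested. Flg2 and Lor, proteins of the cornified layer, had log2 changes of -1.74 and -0.98, and Sprr1a, a precursor of the cornified envelope induced in damaged epidermis, of 2.02 (limma adjusted p = 0.17, 0.21 and 0.084).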

How the data were processed

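Affymetrix arrays were hybridised with biotin-labelled cRNA, per the labels' protocols. The values deposited by the authors are log2 expression values of 22206 features on 9 arrays. The tools named are RMA and Transcriptome Analysis Console, per the submitters' processing notes. For versions, genome build and filters, nothing is given in the sources used here. RMA compresses low values, so fold changes of low genes are understated. Array medians were 5.81 to 5.99, and no 2 arrays were identical. Detection calls were not used here.

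Columns were matched by identifier and features named from the platform table (19572 had 1 symbol). Log2 changes were computed with lmFit and eBayes of limma 3.58.1 (R 4.3.3), two-sided, with no covariate, adjusted over 19505 genes. The fitting script was tested on simulated data, which enter no result. The deviations of same-numbered samples from their group means had r of -0.06, -0.02, 0.06 and 0.34 for replicates 1 to 4. Only for replicate 4 was the same number the best partner, so replicate numbers were not taken as pairs. Precision is limited by the number of arrays.

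The members and lists were chosen with earlier results of these data known. Named genes are the members, the 3 of smallest p in each of 11 pathway lists, all EGR and NR4A relatives, Fos, Il1b, Il6 and Ptgs2, and the 2 most like each member; Krt14 and Col1a1 were added as markers. Of 12 marker lists, the basal keratinocyte, endothelial and smooth muscle lists had median log2 changes of 0.16, 0.56 and 0.02, with none past the threshold.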

Additional observations from a re-analysis of the deposited data

Results flagged for a closer look

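None of the 10 members had an array far from the others of its group by Dixon's test in the 20 groups examined. Over all 62 named genes, 6 of 124 groups did, and chance gives about 1 in 20. In stretch replicate 1, Nab1 was at 9.70 against 10.44 to 10.74 in the other stretch arrays, and Nr4a3 at 6.34 against 7.28 to 7.42. In no-stretch replicate 1, Nab2 was at 5.53 against 5.90 to 5.94, and Dusp16 at 10.24 against 9.55 to 9.61. Gadd45b was at 7.43 in no-stretch replicate 4 against 6.70 to 6.79. Ptgs2 was at 4.75 in no-stretch replicate 3 against 7.23 to 7.37.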

How the results depend on the processing

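The number of members past the threshold, 0 with all arrays, was 1 (Ier3) after quantile normalization, without dim genes, with a trended and robust variance, with array weights, with the replicate number as a block, and at an adjusted p under 0.1; leaving out single arrays gave 0 to 1. Without moderation the adjusted p of Ier3 was 0.31. The number of genes past the threshold, 48, was 103 without dim genes, 157 with array weights, 221 with the replicate block, 211 at an adjusted p under 0.1, 2 without moderation, 15 without the 2 arrays of lowest weight, and 2 to 195 without single arrays (45 to 70 elsewhere). The members' median log2 change, 0.39, ran from -0.015 to 0.99 over all settings and was -0.0086 with the replicate block. The members whose groups do not overlap, 1, numbered 1 to 3 without single arrays, the 3 being without no-stretch replicate 4. Fewer arrays make non-overlap easier for any gene, and the share over all genes in those fits is not given here. The rise to 3 is therefore not read as a result about the members. The replicate block gave Egr1 a log2 change of -0.15 and Vmn1r41 -0.11; stretch replicate 5 has no partner and so drops out of the blocked estimate, and these values equal those without that array. Spx turned to 0.048 with array weights, and without the 2 arrays of lowest weight Nr4a2 turned to -0.18 and Spx to 0.17. Without single arrays Egr1 ran from -0.27 to 0.66, Nr4a2 from -0.057 to 0.27, Nr4a3 from -0.063 to 0.64, Zfp36l1 from -0.58 to 0.021, Spx from -0.26 to 0.047 and Vmn1r41 from -0.13 to 0.20. The other 9 members kept their direction in all 19 settings, and quantile normalization and median centring moved the median of all genes by 0.02 and 0.07.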
